A study of Homo sapiens with 12 samples.

Results

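HCT116 is a colorectal cancer cell line that is kept in a form with wild-type p53 and in a form without p53. The comparison here is between both forms at baseline, each carrying a scrambled control, with p53-/- cells set against p53+/+ cells. It rests on 6 of the 12 libraries of the study, 3 p53-/- controls and 3 p53+/+ controls, all of them named by genotype and control in the sample titles. The other 6 libraries came from both forms after depletion of Mina53, a JmjC-family oxygenase encoded by RIOX2, and they serve below as a separate set of libraries for the same difference between the lines. Poly(A) RNA was sequenced on an Illumina HiSeq instrument. What the scrambled control and the depletion reagent consist of, and whether replicates were separate cultures, is not given in the sources used here, so p-values measure the spread between libraries, which may be technical. Each genotype is represented by 1 line, and the effect of losing p53 cannot be told apart from any other difference between these lines.

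The p53 protein is a transcription factor that binds pairs of CATG-centred elements and activates genes for cell cycle arrest, DNA repair, apoptosis and its own ubiquitin ligase MDM2. Through p21, the product of CDKN1A, it also lowers the transcripts of cell cycle genes, since inhibited cyclin-dependent kinases leave RB-family repressors on their promoters. HCT116 cells keep this pathway intact, which is why the paired lines are widely used to study it.

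Of 36615 genes in the table, 13728 reached 1 FPKM (a measure of fragments corrected for gene length and for library size) in at least 3 of the 12 libraries and were tested. Differences are given as log2 fold changes of FPKM + 1, p53-/- over p53+/+, and were called at an adjusted p of 0.05 with limma. The p53-/- controls differed from the p53+/+ controls in 8701 genes (63.4% of those tested), with 5045 higher (36.7%) and 3656 lower (26.6%). Most of these differences were small. The median size among the called genes was 0.40 on the log2 scale, and 5703 of them (65.5%) differed by less than 0.5. A log2 fold change of at least 1 was reached by 556 genes (4.05%), of which 227 were higher (1.65%) and 329 lower (2.4%) in p53-/- cells, and only 20 rises and 33 falls reached 2. All p53-/- control values lay above all p53+/+ control values for 38.9% of the tested genes and below them for 28.9%, so groups without overlap are common in this comparison. The median over all tested genes was 0.06. The 36.7% higher and 26.6% lower are the background for every count of called list members below.

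**Figure D1:**
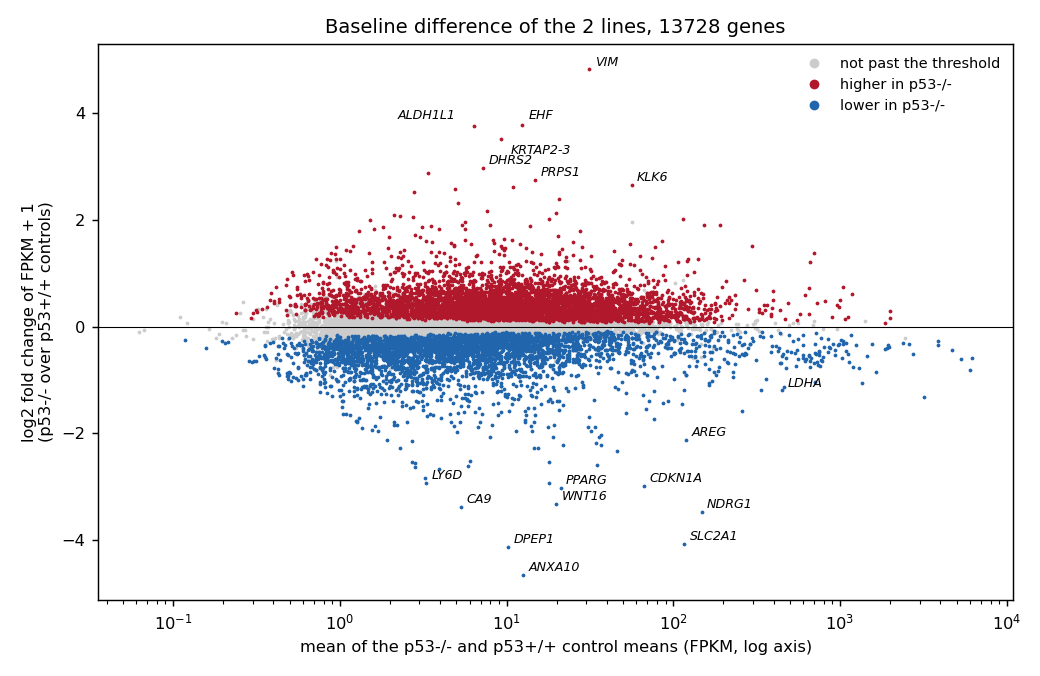
Difference between the lines for each of the 13728 tested genes (log2 fold change of FPKM + 1, p53-/- over p53+/+ controls, vertical axis) against the mean of both control means (FPKM, log axis). Red points were higher and blue points lower in p53-/- cells at an adjusted p of 0.05 and grey points did not pass; VIM lies highest at 4.83 and ANXA10 lowest at -4.65.

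The 6 control libraries separated by line, and the first principal component held 83.0% of their variance against 5.39% for the second. Replicates correlated at 0.993 to 0.995 on the log2 scale. The p53-/- columns summed to between 348822 and 351781 FPKM and the p53+/+ columns to between 369344 and 372821 FPKM. Protein-coding transcripts of the mitochondrial genome took 10.5% ± 0.476 of the p53-/- total and 14.1% ± 0.270 of the p53+/+ total (SD, n = 3 each), without overlap, and an exact two-sided permutation test of 3 against 3 gave its smallest possible p of 0.1. Their part in the balance of rises and falls was not tested beyond the rescaling given at the end. Depth cannot be read from these values, and no counting interval is given. Epithelial markers were present in both lines, namely EPCAM, CDH1, KRT8, KRT18, KRT19 and CDX2, with sums over the list of 1893 to 2045 FPKM in p53-/- and 2380 to 2397 FPKM in p53+/+ controls, while CDH17, GPA33, LGALS4 and VIL1 were under 1 FPKM in all 6. Markers of other cell types were mostly under 1 FPKM in all 6 libraries. That held for 6 of 6 endothelial, 8 of 9 immune, 7 of 8 fibroblast, 3 of 6 erythroid, 6 of 7 neuronal, 4 of 6 kidney and 4 of 5 liver markers found in the table. The immune sum ranged from 8.26 to 10.2 FPKM in p53-/- and from 7.52 to 9.08 FPKM in p53+/+ controls, and the fibroblast sum from 7.18 to 7.75 FPKM in p53-/- and from 7.01 to 7.67 FPKM in p53+/+ controls. The endothelial sum was 0.231 to 0.482 FPKM in p53-/- and 0.261 to 0.427 FPKM in p53+/+ controls. The neuronal sum of 174.8 to 183.6 FPKM in p53-/- and 88.5 to 89.3 FPKM in p53+/+ controls was almost wholly the tubulin TUBB3 (log2 fold change 1.02). Erythroid markers summed to 1.63 to 2.001 FPKM in p53-/- and 4.13 to 4.82 FPKM in p53+/+ controls, kidney markers to 3.58 to 3.68 FPKM in p53-/- and 4.23 to 4.56 FPKM in p53+/+ controls, and liver markers to 0.645 to 0.855 FPKM in p53-/- and 1.21 to 1.41 FPKM in p53+/+ controls.

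The target with the largest difference was CDKN1A, encoding the p21 inhibitor of cyclin-dependent kinases, with 14.9, 14.04 and 13.9 FPKM in the p53-/- controls, against 118, 122 and 119 FPKM in the p53+/+ controls. The p53+/+ libraries were 8.36 times as high on average, and the log2 fold change was -2.98 (SE 0.041, adjusted p = 1.57e-13). MDM2, the ubiquitin ligase that p53 induces and that degrades p53, was at 7.81, 7.998 and 9.13 FPKM in the p53-/- controls, against 13.5, 14.1 and 15.3 FPKM in the p53+/+ controls. It was lower in every p53-/- library, as were 28.9% of all tested genes (-0.71, adjusted p = 4.90e-06). The related inhibitor MDM4 was lower by a smaller margin (-0.37, adjusted p = 0.00398), as was the phosphatase PPM1D, which shuts the pathway off (-0.20, adjusted p = 0.00316). Among 16 tested regulators of p53, 7 were higher (43.8%) and 6 lower (37.5%) in p53-/- cells, beside 36.7% and 26.6% of all tested genes. The higher ones included CDKN2A, whose ARF product blocks MDM2 (0.41), the checkpoint kinase CHEK1 (0.58) and the ubiquitin ligase COP1 (0.49). PIRH2 had no matching symbol, and TP63 was under 1 FPKM in all 6 controls.

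Known p53 target genes were lower in p53-/- cells in most cases, but not in all. Of 71 targets, 66 passed the filter, and 46 of these were lower, 13 higher and 7 not past the threshold, with a median log2 fold change of -0.48 against 0.06 over all genes. The 8 targets under 1 FPKM in all 6 controls included EDA2R, GLS2, SPATA18, TP53AIP1, TRIM22, TSPAN11 and VWCE. In the arrest group 14 of 18 members were lower and 3 higher (median -0.70). BTG2, an antiproliferative gene, was at 2.40, 2.44 and 2.51 FPKM in the p53-/- controls, against 13.1, 13.01 and 14.1 FPKM in the p53+/+ controls (-2.06, adjusted p = 7.07e-12). The phosphatase PTP4A1 (-1.38) and the antiproliferative TOB1 (-0.93) were lower as well.

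In the cell death group 13 of 18 members were lower and 5 higher (median -0.38). TNFRSF10C, a decoy receptor for the death ligand TRAIL, was listed at 0.189, 0.0981 and 0 FPKM in the p53-/- controls, against 3.39, 4.26 and 3.59 FPKM in the p53+/+ controls. It was close to absent in p53-/- libraries (-2.11, adjusted p = 5.65e-09). TNFRSF10C passed the filter only through p53+/+ libraries, so its direction, counted among the 13 lower, was set by the filter. The other TRAIL receptor genes TNFRSF10D (-0.97) and TNFRSF10B (-0.52, adjusted p = 1.87e-07) differed less, and PHLDA3, an inhibitor of AKT, fell by 1.64 on the log2 scale. BAX, which permeabilises the mitochondrial outer membrane, was at 34.2, 34.9 and 28.9 FPKM in the p53-/- controls, against 50.1, 48.5 and 51.8 FPKM in the p53+/+ controls (-0.61, adjusted p = 1.06e-05). BBC3, encoding PUMA, was at 5.90, 7.04 and 5.06 FPKM in the p53-/- controls, against 11.1, 11.4 and 10.02 FPKM in the p53+/+ controls (-0.77, adjusted p = 2.85e-05). The death receptor FAS was lower too (-0.86), but it overlaps ACTA2 on the opposite strand, which was itself lower (-1.84), and whether the counting used strand is not given.

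The repair and metabolism group had 22 of 33 members lower and 5 higher (median -0.48). DDB2, a sensor of ultraviolet damage, was at 5.77, 5.81 and 6.21 FPKM in the p53-/- controls, against 20.2, 20.3 and 19.03 FPKM in the p53+/+ controls (-1.59, adjusted p = 2.04e-10). FDXR, the mitochondrial ferredoxin reductase, was at 18.8, 16.9 and 18.3 FPKM in the p53-/- controls, against 40.5, 40.1 and 38.8 FPKM in the p53+/+ controls (-1.10, adjusted p = 1.71e-09). Both genes were lower without overlap, as were 28.9% of all tested genes. Also lower were the ribosomal protein paralogue RPS27L (-1.30), the actin regulator CYFIP2 (-1.45), the sestrin SESN1 (-1.15), the RNA-binding ZMAT3 (-0.77) and, by less, the repair gene XPC (-0.25) and the stress cytokine GDF15 (-0.31, adjusted p = 0.00104).

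A few targets went the other way. PMAIP1, encoding the BCL2-family protein NOXA, was at 28.96, 32.6 and 32.4 FPKM in the p53-/- controls, against 13.5, 13.4 and 14.7 FPKM in the p53+/+ controls. It was 2.26 times as high in p53-/- cells (1.12, adjusted p = 6.12e-08). LIF, a cytokine, was higher (1.06, adjusted p = 1.82e-09), as were the kinase PLK2 (0.81) and the oxidoreductase TP53I3 (0.56). The plot of p53 targets by library shows these 4 genes on the right with the p53-/- points on top.

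**Figure D2:**
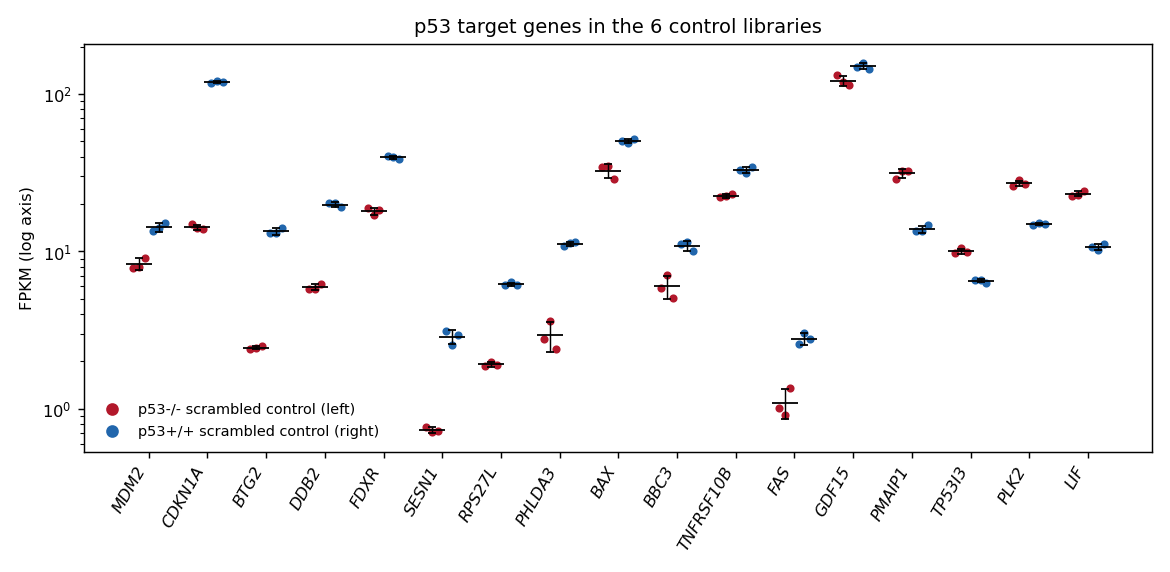
FPKM (log axis) of 17 p53 target genes in each control library, with p53-/- libraries in red on the left of each pair and p53+/+ libraries in blue on the right; bars mark the mean and its SD over 3 libraries. From MDM2 to GDF15 the p53-/- points lie lower, with CDKN1A widest apart, and for PMAIP1, TP53I3, PLK2 and LIF they lie higher.

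The promoters were scanned for a core of the p53 site, CATG followed by any 6 bases and CATG again, which reads the same on both strands. RefSeq gives a promoter of 250 bases before to 50 bases after the start (300 in all, GRCh38.p14) for 9934 tested genes. The core was found in 18 of these (0.181%) and in 1 of 49 p53 targets, TRIAP1, an apoptosis inhibitor named here after the scan. TRIAP1 had a log2 fold change of -0.38. The stretch at chr12:120446335-120446364, minus strand, is shown with the core in capitals because it is the only match among the targets.
TRIAP1: tgtgggggaggCATGCACGGACATGaagcg
Functional p53 sites often lie outside such a window or differ from this core, and a match or its absence is a description of these letters only.

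Apart from the markers of other cell types, the lists with medians furthest from that of all genes were those of the response to low oxygen and of glycolysis. HIF transcription factors bind the core ACGTG and activate genes for glucose uptake, glycolysis, acid-base balance and mitophagy, while prolyl hydroxylases mark HIF for destruction when oxygen is plentiful. Of 27 tested hypoxia targets, 23 were lower in p53-/- cells, 0 were higher and 4 did not pass, and 21 of the 23 fell by at least 1 (median -1.65). Of 25 glycolysis genes, 22 were lower and 1 higher (median -0.85), 11 of them lower by at least 1. LOX and RORA were under 1 FPKM in all 6 controls.

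SLC2A1, the glucose transporter GLUT1, was at 12.1, 12.2 and 12.3 FPKM in the p53-/- controls, against 221, 225 and 215 FPKM in the p53+/+ controls. This 18.1-fold excess in p53+/+ cells was the third largest fall among genes of at least 5 FPKM in the higher line (log2 fold change -4.07, SE 0.043, adjusted p = 2.46e-14). NDRG1, a stress-responsive gene of the N-myc downstream regulated family, was at 24.4, 24.5 and 22.1 FPKM in the p53-/- controls, against 278, 287 and 251 FPKM in the p53+/+ controls (-3.47, adjusted p = 5.66e-13). CA9, a carbonic anhydrase used as a marker of hypoxia, was at 0.162, 0.0551 and 0.118 FPKM in the p53-/- controls, against 9.93, 11.2 and 10.6 FPKM in the p53+/+ controls (-3.38, adjusted p = 6.81e-11). Neither gene overlapped between the lines, and 28.9% of all tested genes were likewise lower without overlap. CA9 was nearly absent from p53-/- cells. It passed the filter only through p53+/+ libraries, so its direction was set by the filter.

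Further along the pathway, LDHA, which turns pyruvate into lactate, was at 275, 277 and 271 FPKM in the p53-/- controls, against 649, 636 and 599 FPKM in the p53+/+ controls (-1.19, adjusted p = 1.88e-10). PGK1, phosphoglycerate kinase, was at 71.5, 70.0 and 68.7 FPKM in the p53-/- controls, against 165, 162 and 154 FPKM in the p53+/+ controls (-1.18, adjusted p = 1.91e-10). BNIP3, a mitophagy receptor, was at 13.97, 14.9 and 15.3 FPKM in the p53-/- controls, against 79.2, 79.5 and 74.1 FPKM in the p53+/+ controls (-2.32, adjusted p = 7.77e-12). In each of these the p53+/+ libraries stood well above the p53-/- libraries. BNIP3 and LDHA have pseudogene copies in the table, 14 and 5, and how reads were divided among copies is not given. PFKFB4, which makes the activator of phosphofructokinase (-2.28), the lipase inhibitor ANGPTL4 (-2.94) and the clock repressor BHLHE40 (-1.79) were also lower. The exception was the neuronal-type glucose transporter SLC2A3, higher in p53-/- cells at 1.39, 1.29 and 1.38 FPKM in the p53-/- controls, against 0.336, 0.498 and 0.558 FPKM in the p53+/+ controls (0.69, adjusted p = 4.09e-06).

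Genes for the HIF subunits, picked out after their values were seen, did not move together. HIF1A was at 67.6, 71.6 and 71.3 FPKM in the p53-/- controls, against 26.6, 28.9 and 30.8 FPKM in the p53+/+ controls (1.26, adjusted p = 2.39e-09). EPAS1, encoding HIF-2α, was at 2.76, 3.19 and 3.01 FPKM in the p53-/- controls, against 13.3, 13.4 and 13.1 FPKM in the p53+/+ controls (-1.84, adjusted p = 4.08e-11). HIF1A was thus higher and EPAS1 lower in every p53-/- library, as were 38.9% and 28.9% of all tested genes. VHL, the ubiquitin ligase subunit that removes HIF, was at 12.5 ± 0.262 FPKM in p53-/- and 13.1 ± 0.115 FPKM in p53+/+ controls (SD, n = 3 each) and did not pass (adjusted p = 0.213). Several demethylases of the JmjC family are themselves HIF targets. Of 21 JmjC oxygenases 5 were lower (23.8%) and 7 higher (33.3%), with a median of -0.02. These shares are near the 26.6% lower and 36.7% higher of all tested genes. The deepest falls were KDM3A (-1.84, adjusted p = 1.81e-10) and KDM4B (-1.66, adjusted p = 3.19e-10), and KDM5B (-0.69) and KDM4C (-0.51) were also lower. Among the 7 higher, KDM4A had the smallest p (0.64), and the highest value of the list was 0.98.

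The HIF core ACGTG, on either strand, stood in the promoter of 27% of all 9934 genes, of 24 of 46 hypoxia and glycolysis members (52.2%) and of 24 of the 42 that were lower (57.1%). Stretches from 3 of the lower genes described above are shown, with the core in capitals. SLC2A1, NDRG1 and PFKFB4, also described above, were not among the 24 genes with the core. The BNIP3 stretch is at chr10:131982040-131982069 on the minus strand, that of CA9 at chr9:35673897-35673926 on the plus strand, with the core read on the other strand, and that of LDHA at chr11:18394366-18394395 on the plus strand.
BNIP3: gcgcacgcgccgcACGTGccacacgcaccc
CA9: ctcgtttccaatgCACGTacagcccgtaca
LDHA: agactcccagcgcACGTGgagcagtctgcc
A core of 5 letters is common by itself, as the share over all promoters shows, and a match is not evidence of binding. Since the hypoxia list was built from known targets, the shares describe the lists rather than this comparison.

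Interferon-stimulated genes were higher in p53-/- cells. Interferons act through STAT-family factors and IRF9, which bind an element of GAAA, any 2 bases and GAAA, and switch on antiviral proteins and antigen presentation. Of 38 tested members 27 were higher, 2 lower and 9 not past the threshold (median 0.49). Another 10 of the 48 did not pass the filter, and 11 were under 1 FPKM in all 6 controls, among them MX1, OAS1, OAS2, RSAD2 and BST2.

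OAS3, a sensor of double-stranded RNA, was at 18.8, 18.8 and 18.4 FPKM in the p53-/- controls, against 6.84, 7.37 and 8.08 FPKM in the p53+/+ controls (1.22, adjusted p = 2.81e-09). IFI6, a mitochondrial antiviral protein, was at 28.6, 27.2 and 27.9 FPKM in the p53-/- controls, against 11.5, 12.4 and 10.9 FPKM in the p53+/+ controls (1.20, adjusted p = 1.37e-08). IFIT1, which binds foreign RNA caps, was at 2.68, 3.01 and 3.19 FPKM in the p53-/- controls, against 0.893, 0.749 and 0.903 FPKM in the p53+/+ controls (1.10, adjusted p = 3.25e-08). All 3 genes were higher without overlap, as were 38.9% of all tested genes, and IFIT1 was low in both lines. IFIT1 was under 1 FPKM in all p53+/+ controls and passed the filter through p53-/- libraries, which favoured a rise. IFITM2, which blocks viral entry, was higher by 0.90, while the ISG15-conjugating enzyme UBE2L6 was lower (-0.41, adjusted p = 0.00653).

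Of 15 tested genes of MHC class I presentation 9 were higher and 2 lower (median 0.22). The peptide loading factor TAPBP was at 46.1, 38.5 and 38.9 FPKM in the p53-/- controls, against 18.7, 16.4 and 19.8 FPKM in the p53+/+ controls (1.13, adjusted p = 6.86e-08). PSMB9, an immunoproteasome subunit (1.15), the peptide transporter TAP2 (0.75) and the trimming peptidase ERAP1 (0.75) were higher as well. HLA-F was the lower gene with the smallest p (-0.68, adjusted p = 0.00176), and reads of such closely related HLA genes may be split unevenly.

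That element, searched as GAAA, any 2 bases and GAAA on either strand, was found in 2.57% of all promoters, in 28 of 42 interferon and MHC class I members (66.7%), in 22 of the 29 higher (75.9%) and in 2 of the 3 lower. The stretches below come from the 3 antiviral genes given above, with the element in capitals. They lie at chr10:89392510-89392539 (IFIT1, plus strand, element on the other strand), chr12:112938321-112938350 (OAS3, plus strand) and chr1:27672288-27672317 (IFI6, minus strand).
IFIT1: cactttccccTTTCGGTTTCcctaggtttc
OAS3: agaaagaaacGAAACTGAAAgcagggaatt
IFI6: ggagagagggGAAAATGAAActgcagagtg
Since the lists were built from genes known to respond to interferon, many through this element, the shares describe the lists rather than this comparison.

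Cell cycle genes were moderately higher in p53-/- cells. Of 47 genes of the G1/S transition and DNA replication, 39 were higher and 2 lower (median 0.44). Of 37 genes of G2 and mitosis, 24 were higher, 2 lower and 11 not past the threshold (median 0.23), and none of either list reached a log2 fold change of 1. CCND3, a D-type cyclin, was at 21.8, 21.9 and 20.3 FPKM in the p53-/- controls, against 11.2, 11.4 and 11.2 FPKM in the p53+/+ controls (0.86, adjusted p = 1.73e-08). CDK4, its partner kinase, rose by 0.46 on the log2 scale, the helicase subunit MCM3 by 0.47 and the ribonucleotide reductase subunit RRM2 by 0.65. The replication factor subunit RFC5 was lower (-0.23).

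AURKB, a mitotic kinase, was at 64.4, 58.8 and 60.2 FPKM in the p53-/- controls, against 38.3, 37.1 and 35.5 FPKM in the p53+/+ controls (0.71, adjusted p = 4.93e-08). PLK1, which drives mitotic entry, rose by 0.70, the cyclin CCNB1 by 0.65 and the anaphase activator CDC20 by 0.63. MKI67, the proliferation antigen Ki-67, was 1 of the 2 lower members of its list. MKI67 was at 36.4, 36.9 and 38.2 FPKM in the p53-/- controls, against 45.5, 45.2 and 48.5 FPKM in the p53+/+ controls. It was lower in each p53-/- library, as were 28.9% of all tested genes (-0.31, adjusted p = 2.90e-05). Of 33 DNA repair genes 16 were higher (48.5%, against 36.7% of all tested genes) and 2 lower (median 0.21), and the higher ones included the Fanconi gene FANCG (0.64), the exonuclease EXO1 (0.74), BRCA1 (0.65) and the glycosylase OGG1 (0.96). The mismatch repair gene MSH6 was lower (-0.51, adjusted p = 7.62e-08).

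MYC, a growth-promoting transcription factor, was at 49.4, 47.7 and 47.8 FPKM in the p53-/- controls, against 90.4, 89.0 and 94.9 FPKM in the p53+/+ controls. It was 1.89 times as high in p53+/+ cells (-0.91, SE 0.039, adjusted p = 2.37e-09). Within its network of dimer partners 6 of 12 genes were lower (50%) and 4 higher (33.3%), beside 26.6% lower and 36.7% higher of all tested genes. The antagonists MXI1 (-1.65) and MXD1 (-0.80) and the glucose-sensing MLXIPL (-0.80) were lower while MLX was higher (0.34). Of 34 tested MYC targets, 18 were higher (52.9%) and 7 lower (20.6%), with a median of 0.15. The share of lower targets was near the 26.6% of all tested genes, of which 36.7% were higher. Among the rises were the folate transporter SLC19A1 (0.78), the chaperonin subunit CCT5 (0.44) and the nucleolar MYBBP1A (0.44). LDHA was the lower member with the smallest p.

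Ribosomal protein genes were almost uniformly lower. Of 78 tested, 73 were lower in p53-/- cells, 0 were higher and 5 did not pass (median -0.50), and their summed level was 40022 to 42424 FPKM in p53-/- controls, against 56056 to 58288 FPKM in p53+/+ controls. RPL12, a large-subunit protein, was at 904, 877 and 846 FPKM in the p53-/- controls, against 1864, 1837 and 1783 FPKM in the p53+/+ controls (-1.06, adjusted p = 1.32e-10). RPL4 (-0.76) and RPL5 (-0.74) were also lower, and RPL27A, a substrate of Mina53, fell by 0.41. These genes have many pseudogene copies, 38 for RPL12 in this table. Bulk RNA cannot tell less RNA per cell from fewer cells of a kind, here or in any other result.

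The mitochondrial genome gave 13 protein-coding genes, of which 11 were lower and 1 higher (median -0.37). The cytochrome oxidase gene COX2 was at 4485, 4509 and 4101 FPKM in the p53-/- controls, against 7371, 7787 and 7851 FPKM in the p53+/+ controls (-0.81, adjusted p = 1.55e-08). COX1 (-0.59), COX3 (-0.60) and ATP6 (-0.43) were lower too, whereas the complex I gene ND2 was higher (0.29, adjusted p = 0.000698). Nuclear genes of the respiratory chain were divided, with 11 of 40 higher (27.5%), 10 lower (25%) and a median of 0.02. Over all tested genes 36.7% were higher and 26.6% lower, so the share of lower genes was near that of all genes. The ATP synthase genes ATP5MC1 (0.56) and ATP5PO (0.28), SDHB of complex II (0.24) and NDUFS3 of complex I (0.32) rose, and NDUFS1 of complex I fell by 0.62. With all columns scaled to equal totals, 17 of these nuclear genes were higher and 6 lower, so no direction is given for the list.

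Stress-response programmes differed as well. ATF4 is a factor made when translation initiation is slowed by amino acid shortage or unfolded protein, and it activates genes of amino acid supply and of cell death. Of 28 tested ATF4 and unfolded protein genes 21 were higher and 3 lower in p53-/- cells (median 0.53), 9 of them higher by at least 1, and NUPR1 and VLDLR were under 1 FPKM in all 6 controls. CHAC1, which degrades glutathione, was at 18.5, 21.1 and 18.8 FPKM in the p53-/- controls, against 2.32, 1.94 and 2.82 FPKM in the p53+/+ controls (2.61, adjusted p = 3.26e-10). PHGDH, the first enzyme of serine synthesis, was at 118, 113 and 114 FPKM in the p53-/- controls, against 41.0, 38.4 and 40.9 FPKM in the p53+/+ controls (1.497, adjusted p = 5.84e-11). Both were higher in every p53-/- library, as were 38.9% of all tested genes. The pseudokinase TRIB3 (1.45), the factor DDIT3 (1.44) and the amino acid transporter subunit SLC3A2 (1.23) rose, and the chaperone HSP90B1 fell by 0.29.

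An ATF4 element, TGATGNAA on either strand, was present in 1.55% of all promoters, in 5 of 26 list members (19.2%), in 5 of the 19 higher (26.3%) and in 0 of the 3 lower. The stretches of CHAC1 (chr15:40953251-40953280, plus strand) and SLC3A2 (chr11:62881719-62881748, plus strand) are shown, both with the element on the other strand, as the 2 matches among the genes just described.
CHAC1: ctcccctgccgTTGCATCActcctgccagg
SLC3A2: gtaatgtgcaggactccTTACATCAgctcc
No inference on binding is drawn from these letters.

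Heat shock genes were higher in 10 of 15 cases and lower in 2 (median 0.25). HSPB1, a small heat shock protein, was at 972, 944 and 859 FPKM in the p53-/- controls, against 400.1, 409.5 and 389 FPKM in the p53+/+ controls (1.21, adjusted p = 2.68e-08). The inducible HSP70 genes HSPA1A (1.30) and HSPA1B (1.27), which are near-identical and may exchange reads, and the constitutive HSPA8 (0.72) rose, and HSPB8 fell by 0.98. Among 19 targets of the antioxidant factor NRF2, 9 were higher (47.4%) and 7 lower (36.8%), with a median of 0.01, beside 36.7% and 26.6% of all tested genes. SLC7A11, a cystine transporter, was at 6.90, 7.71 and 8.25 FPKM in the p53-/- controls, against 1.95, 1.83 and 2.29 FPKM in the p53+/+ controls (1.51, adjusted p = 1.81e-07). The quinone reductase NQO1 (0.65) and the sulfiredoxin SRXN1 (0.67) were higher, and the export pump ABCC2 was lower (-1.12).

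Of 24 cholesterol synthesis genes 16 were lower and 4 higher (median -0.44). SREBF2, the transcription factor of this pathway, was at 18.7, 17.1 and 19.1 FPKM in the p53-/- controls, against 47.8, 49.95 and 48.8 FPKM in the p53+/+ controls (-1.37, adjusted p = 5.98e-10). Squalene synthase FDFT1 was lower as well (-0.86). Of 30 lysosome and autophagy genes 16 were higher (53.3%) and 7 lower (23.3%), with a median of 0.21, against 36.7% higher and 26.6% lower over all tested genes, so the share of lower genes was near that of all genes. The higher ones included the autophagy receptor SQSTM1 (0.40), cathepsin D CTSD (0.46) and the sterol carrier NPC2 (0.44), and the glucosidase GAA was lower (-0.64).

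**Figure D3:**
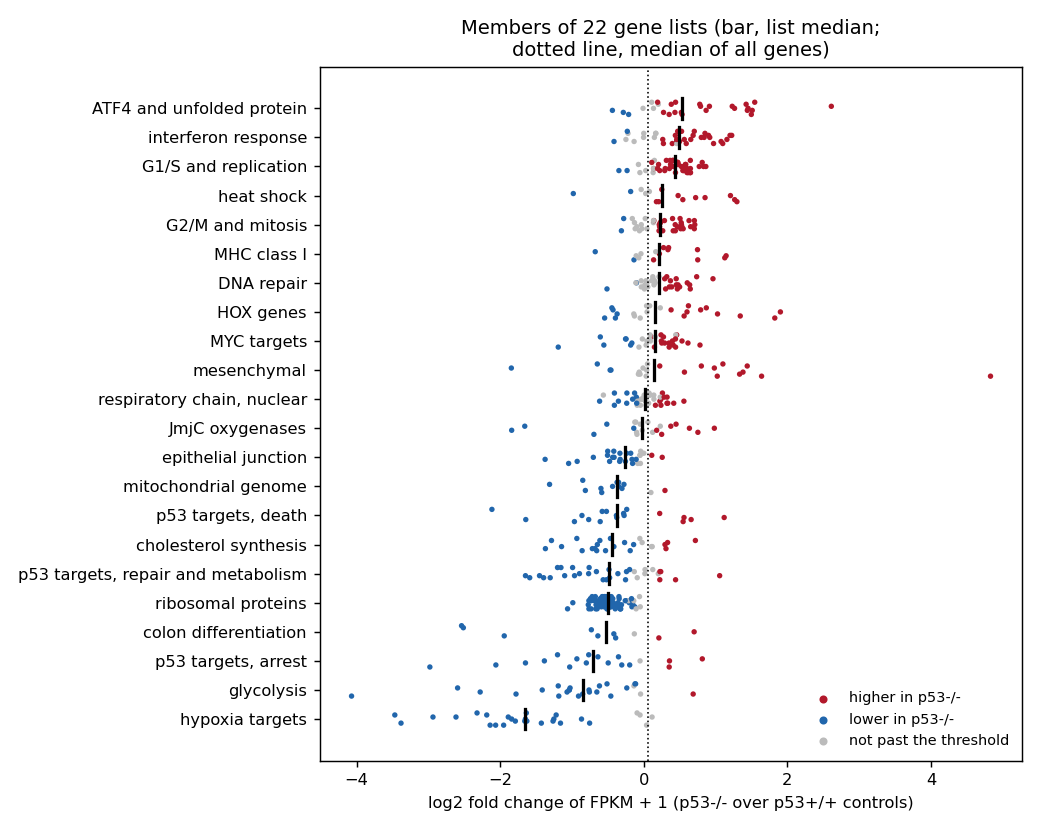
Log2 fold change of FPKM + 1 (p53-/- over p53+/+ controls, horizontal axis) of each tested member of 22 gene lists, 1 row per list ordered by its median. Points are genes, red where higher and blue where lower in p53-/- cells and grey where not past the threshold; black bars are list medians, from -1.65 for hypoxia targets to 0.53 for ATF4 and unfolded protein genes, and the dotted line is the median of all genes, 0.06.

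Some markers of cell identity differed widely between the lines, while the median differences of the epithelial junction and mesenchymal lists were small and the keratins were divided. Epithelial cells are held together by E-cadherin and desmosomes and express keratins, whereas mesenchymal cells express vimentin. VIM, encoding vimentin, was at 59.95, 63.0 and 61.7 FPKM in the p53-/- controls, against 1.23, 1.22 and 1.16 FPKM in the p53+/+ controls. It was 51.2 times as high in p53-/- cells and was the largest rise of all tested genes (4.83, SE 0.065, adjusted p = 1.57e-13). CDH1, encoding E-cadherin, was at 8.89, 8.69 and 9.44 FPKM in the p53-/- controls, against 19.4, 19.7 and 19.9 FPKM in the p53+/+ controls (-1.05, adjusted p = 1.71e-09). Every p53-/- library had more VIM and less CDH1 than every p53+/+ library, and CDH1 stayed above 8 FPKM in all of them. Of all tested genes, 38.9% were higher and 28.9% lower without overlap.

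Of 27 epithelial junction genes 19 were lower and 2 higher (median -0.26), including the transcription factor OVOL1 (-1.37) and the desmosomal genes PPL (-0.70) and DSP (-0.51), while the claudin CLDN4 was higher (0.26). Among 22 tested mesenchymal genes 11 were higher and 4 lower (median 0.14). Besides VIM, the receptor kinase AXL (1.64), the matricellular CCN1 (1.33) and the urokinase PLAU (1.10) rose, and ACTA2, the smooth muscle actin, fell by 1.84. ACTA2 was under 1 FPKM in all p53-/- controls and passed the filter through p53+/+ libraries, which favoured a fall. Another 10 members, among them CDH2, ZEB2 and the collagens COL1A2 and COL3A1, were under 1 FPKM in all 6 controls.

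Keratins were split, with 6 of 11 higher and 5 lower. KRT81 (1.28), KRT80 (0.92), KRT20 (0.70) and KRT15 (0.49) rose, and KRT7 fell by 1.70. KRT81 and KRT20 were under 1 FPKM in all p53+/+ controls and passed the filter through p53-/- libraries, which favoured a rise. The abundant keratins KRT19 (-0.44), KRT8 (-0.25) and KRT18 (-0.16) were lower in p53-/- cells, the last pair with 44 and 47 pseudogene copies in the table. Genes of colon differentiation were largely silent. Of 39 entries 31 were in the table, 10 passed the filter and 21 were under 1 FPKM in all 6 controls, and of the 10 tested 7 were lower and 2 higher (median -0.53). KLF4, a differentiation factor, was at 4.78, 4.66 and 4.34 FPKM in the p53-/- controls, against 31.5, 31.6 and 31.3 FPKM in the p53+/+ controls (-2.54, adjusted p = 8.59e-12). DPP4, a brush border peptidase, was at 1.06, 0.959 and 1.28 FPKM in the p53-/- controls, against 11.1, 10.3 and 11.5 FPKM in the p53+/+ controls (-2.51, adjusted p = 3.89e-11). HNF4A, a hepatocyte and gut transcription factor, was at 0.0318, 0.0604 and 0.0676 FPKM in the p53-/- controls, against 3.03, 2.79 and 3.34 FPKM in the p53+/+ controls (-1.94, adjusted p = 2.37e-09). In these 3 genes the p53-/- libraries were lower without overlap, as in 28.9% of all tested genes, whereas the colon transcription factor CDX2 was slightly higher (0.21, adjusted p = 0.0238). HNF4A passed the filter only through p53+/+ libraries, so its direction was set by the filter.

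The largest differences included genes that were nearly absent from one of the lines. EHF, an epithelial ETS factor, was at 23.4, 23.1 and 25.2 FPKM in the p53-/- controls, against 0.710, 0.7497 and 0.936 FPKM in the p53+/+ controls (3.79, adjusted p = 1.04e-12). ALDH1L1, a folate enzyme, was at 13.7, 12.2 and 12.2 FPKM in the p53-/- controls, against 0.0193, 0.0172 and 0 FPKM in the p53+/+ controls (3.76, adjusted p = 6.72e-13). PRPS1, which makes phosphoribosyl pyrophosphate for nucleotide synthesis, was at 26.1, 26.8 and 27.2 FPKM in the p53-/- controls, against 2.77, 3.33 and 3.23 FPKM in the p53+/+ controls (2.75, adjusted p = 3.46e-12). PRPS1, unlike ALDH1L1, was still expressed in p53+/+ cells. These 3 genes, with the keratin-associated KRTAP2-3 (3.51), the reductase DHRS2 (2.98), CCDC102B (2.88), the kallikrein protease KLK6 (2.67), CHAC1 and the chemoattractant receptor GPR15 (2.57), followed VIM among the 10 largest rises. EHF, ALDH1L1, CCDC102B and GPR15 were under 1 FPKM in all p53+/+ controls. They passed the filter through p53-/- libraries, so their direction was set by the filter.

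In the other direction, ANXA10, an annexin, was listed at 0.0597, 0 and 0.0632 FPKM in the p53-/- controls, against 25.8, 24.3 and 25.4 FPKM in the p53+/+ controls (-4.65, adjusted p = 1.57e-13). DPEP1, a membrane dipeptidase, was at 0.319, 0.133 and 0.219 FPKM in the p53-/- controls, against 20.1, 21.3 and 19.6 FPKM in the p53+/+ controls (-4.12, adjusted p = 4.73e-12). PPARG, a nuclear receptor of lipid metabolism, was at 3.82, 3.72 and 3.97 FPKM in the p53-/- controls, against 39.1, 37.6 and 38.3 FPKM in the p53+/+ controls (-3.02, adjusted p = 1.38e-11). All p53+/+ values of these genes were far above the p53-/- values, though PPARG was still expressed in p53-/- cells. The ligand WNT16 (-3.32) and LY6D, a surface protein listed at 0 in all p53-/- controls and at 6.38, 6.73 and 6.70 FPKM in p53+/+ controls, were also among the 10 largest falls, with SLC2A1, NDRG1, CA9, CDKN1A and ANGPTL4. ANXA10, DPEP1, LY6D and CA9 passed the filter only through p53+/+ libraries, so their direction was set by the filter.

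Taking genes under 0.1 FPKM in all 3 libraries of one line and at 1 FPKM or more in all 3 of the other, 10 were restricted to p53-/- controls and 14 to p53+/+ controls. The p53-/- set included ALDH1L1, CCDC102B, the kinase ALPK2 at 2.45, 2.46 and 2.79 FPKM and KRTAP4-12 at 1.73, 2.24 and 1.68 FPKM, and also the small RNA gene copy RNU6-909P and the readthrough RPL36A-HNRNPH2, whose values are uncertain. ALPK2 had 0.0227, 0.0333 and 0.0254 FPKM and KRTAP4-12 0, 0.0674 and 0 FPKM in p53+/+ controls. The p53+/+ set included ANXA10, LY6D, HNF4A, the locus LOC105377329, the zinc finger gene ZNF91 and the fatty acid hydroxylase CYP4F12. ZNF91, a repressor of retroelements, was at 0.0268, 0.0107 and 0.0155 FPKM in the p53-/- controls, against 2.46, 2.34 and 2.79 FPKM in the p53+/+ controls. In the separate depleted libraries 6 of the 10 and 12 of the 14 stayed under 0.1 FPKM in the line that lacked them.

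Among growth factor and AP-1 genes 11 of 31 were higher (35.5%) and 12 lower (38.7%), with a median of 0.05. Over all tested genes 36.7% were higher and 26.6% lower, so the share of higher genes was near that of all genes. Of the 12 lower members only AREG, with the smallest p, is named. JUN, an AP-1 subunit, was at 21.9, 20.6 and 20.8 FPKM in the p53-/- controls, against 7.12, 8.004 and 6.98 FPKM in the p53+/+ controls (1.403, adjusted p = 1.46e-09). AREG, a ligand of the EGF receptor, was at 42.1, 43.2 and 46.7 FPKM in the p53-/- controls, against 198, 196 and 190.1 FPKM in the p53+/+ controls (-2.12, adjusted p = 8.80e-13). JUN was thus higher and AREG lower in all p53-/- libraries, as were 38.9% and 28.9% of all tested genes. The early gene EGR1 (0.73) and the feedback inhibitors DUSP6 (0.61) and SPRY4 (0.41) rose. Of 17 tested NF-κB genes 9 were higher and 2 lower (median 0.23), with small rises of NFKB1 (0.34), RELB (0.42) and NFKBIE (0.34). The adhesion molecule ICAM1 went against them, with 0.0748, 0.0732 and 0.117 FPKM in the p53-/- controls, against 4.96, 5.55 and 5.40 FPKM in the p53+/+ controls (-2.53, adjusted p = 1.38e-11). ICAM1 passed the filter only through p53+/+ libraries, so its direction was set by the filter.

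Targets of WNT signalling were mixed, with 5 of 15 higher (33.3%) and 7 lower (46.7%), beside 36.7% and 26.6% of all tested genes. EPHB2 (-1.45), EPHB3 (-0.99), the pseudoreceptor BAMBI (-1.30) and the surface receptor CD44 (-0.75) fell, and the secreted inhibitor DKK1 rose by 0.38. Of 19 annexin and S100 genes 8 were higher (42.1%) and 6 lower (31.6%), with a median of 0.03, which is near the 36.7% higher and 26.6% lower of all tested genes. The fall of ANXA10 (-4.65) was the largest change of the list, beside rises of ANXA3 (1.33), ANXA1 (0.68), S100A6 (0.62) and S100A16 (0.57). Of 11 genes that write, read or erase DNA methylation 5 were higher (45.5%) and 2 lower (18.2%), beside 36.7% and 26.6% of all tested genes. The rises were led by UHRF1 (0.52), TET3 (0.38), MBD1 (0.31) and DNMT1 (0.19), against a fall of TET1 (-0.53). TET1 was under 1 FPKM in all p53-/- controls. Cancer-testis genes were mostly silent, with 17 of 23 in the table under 1 FPKM in all 6 controls. Of the 7 tested, 4 were higher (57.1%) and 0 lower, with a median of 0.15. The clearest was MAGEA3 (0.26), while MAGEA2 (0.15), MAGEA6 (0.23) and TEX14 (0.23) lost the threshold under several other settings. TEX14 was itself under 1 FPKM in all 6 controls and passed the filter only through depleted libraries.

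RIOX2, the gene for Mina53 that the study depletes, was at 9.31, 8.89 and 9.07 FPKM in the p53-/- controls, against 7.44, 7.27 and 7.77 FPKM in the p53+/+ controls before depletion. It was slightly higher in p53-/- cells (0.25, adjusted p = 0.00802). Its paralogue RIOX1 was at 3.69, 4.51 and 3.69 FPKM in the p53-/- controls, against 1.88, 2.03 and 1.90 FPKM in the p53+/+ controls (0.75, adjusted p = 5.60e-06). The arginine methyltransferase PRMT1 differed little (0.16, adjusted p = 0.00891) and did not pass with TMM-type scaling (adjusted p = 0.0858).

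HOX genes specify position along the body axis. Of 33 HOX genes in the table, 13 were under 1 FPKM in all 6 controls. Of 22 tested HOX genes 10 were higher (45.5%) and 5 lower (22.7%) in p53-/- cells, against 36.7% higher and 26.6% lower over all tested genes. HOXB4 was at 8.51, 9.56 and 9.32 FPKM in the p53-/- controls, against 1.798, 1.49 and 1.84 FPKM in the p53+/+ controls (1.90, adjusted p = 1.25e-09). HOXB8 (1.82), HOXB9 (1.34) and HOXA9 (0.79) rose, and HOXA13 fell by 0.55. HOXA13 was under 1 FPKM in all p53-/- controls and passed the filter only through p53+/+ libraries, so its direction was set by the filter. By cluster, a grouping chosen after the values were seen, 8 of 9 HOXB genes were higher and 0 lower (median 0.87). HOXB2, 1 of these 8, was under 1 FPKM in all 6 controls and passed the filter only through depleted libraries. The HOXA cluster had 1 of 9 higher and 4 lower (median -0.13), and the HOXC cluster 1 of 5 in each direction.

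The same difference between the lines was measured in the depleted libraries, which share no library with the controls but come from the same lines and entered the same model. There 8829 genes differed (64.3%), 5076 higher (37%) and 3753 lower (27.3%) in p53-/- cells. Of the genes higher in p53-/- controls 3567 were also higher in p53-/- depleted cells, which is 70.7% of the control set and 70.3% of the depleted set. Of those lower, 2599 were shared, 71.1% of the control set and 69.3% of the depleted set, and 408 genes had opposite calls. Across genes, which are not independent, the log2 fold changes correlated at r = 0.774 (rho = 0.729). Among the 556 genes with a log2 fold change of at least 1 in controls, 512 had the same call after depletion and 2 the opposite.

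VIM had a log2 fold change of 4.74 in depleted cells beside 4.83 in controls, SLC2A1 -3.94 beside -4.07, EHF 3.86 beside 3.79, HOXB4 1.90 beside 1.90 and TAPBP 1.27 beside 1.13. For none of these 5 did the difference between both values pass the threshold. The p53 targets had 50 of 66 members lower and 7 higher after depletion (median -0.87). Interferon genes had 36 of 38 higher (median 1.16), G2 and mitosis genes 37 of 37 higher (median 1.16) and hypoxia targets 22 of 27 lower (median -0.85). The difference itself was called for 4511 genes (32.9%), of which 155 reached a size of 1. BNIP3 showed it most among the genes above, with -0.52 in depleted cells beside -2.32 in controls (difference 1.81, adjusted p = 3.81e-08). PLK2 (-0.28 beside 0.81) and MKI67 (0.73 beside -0.31) were called in opposite directions.

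**Figure D4:**
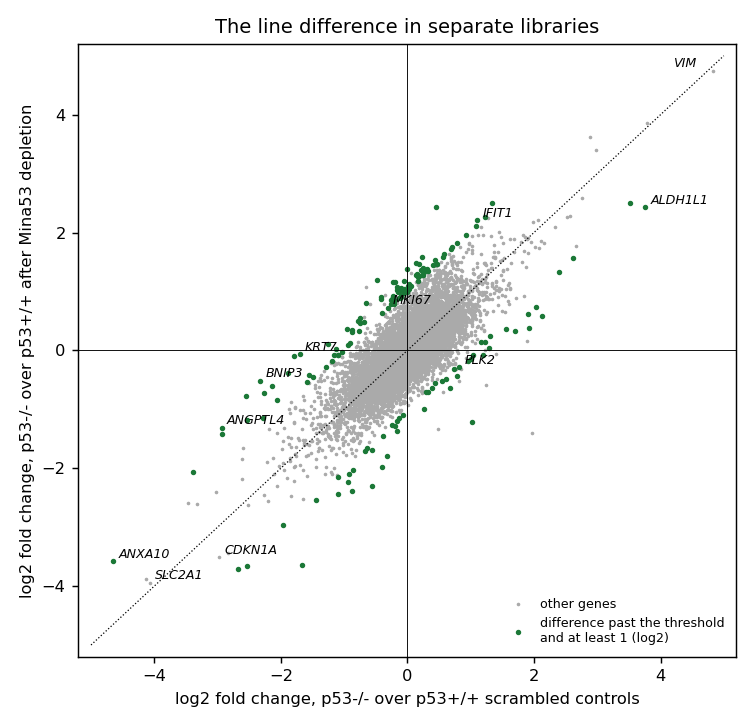
Log2 fold change of FPKM + 1, p53-/- over p53+/+, in scrambled controls (horizontal axis) and in Mina53-depleted libraries (vertical axis) for all 13728 genes; the dotted line marks equal values. Green points are the 155 genes whose difference between both values passed the threshold and reached 1; VIM, SLC2A1 and CDKN1A lie near the line, BNIP3, KRT7 and ANGPTL4 above it and ALDH1L1 and PLK2 below it.

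Differences are given next by chromosome and by neighbouring genes, as a description with no test. Over all tested genes the median was 0.06 in depleted cells and 0.06 in controls. On chromosome 21, 68 of 137 tested genes were higher in p53-/- cells (49.6%) and 17 lower (12.4%), with a median of 0.22 in depleted cells and 0.21 in controls. Chromosome 18 had a median of 0.06 in depleted cells, close to that of all genes, and of -0.05 in controls, the lowest of the nuclear chromosomes there. Among 12841 windows of 20 neighbouring tested genes, in the order of the RefSeq gene table, the middle 95% of medians ran from -0.23 to 0.33.

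The highest window, on chromosome 22 from APOBEC3B to RPS19BP1, had a median of 0.44 in depleted cells and 0.77 in controls, where 14 genes were higher and 3 lower. It holds the APOBEC3 cytidine deaminases, and its largest change was LOC101927202 (2.52), an uncharacterised locus between APOBEC3G and APOBEC3H, with PDGFB, a growth factor, near its middle (0.79). A pair of windows on chromosome 17 followed. From SMARCE1 to FKBP10, a stretch of keratin and keratin-associated genes, the median was 0.67 in depleted cells and 0.61 in controls, with KRTAP2-3 as the largest change and KRT20 near the middle. From MRPL10 to HOXB9, across the HOXB cluster, it was 0.67 in depleted cells and 0.58 in controls, with 17 genes higher and 1 lower in controls, SCRN2 near the middle (0.60) and HOXB4 highest.

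The lowest windows were on chromosome 10 from PDCD11 to PDCD4, with a median of -0.31 in depleted cells and -0.63 in controls, on chromosome 9 from LDHAP4 to TUBB8P1, with -0.32 in depleted cells and -0.53 in controls, and on chromosome 8 from MTSS1 to NDRG1, with -0.44 in depleted cells and -0.48 in controls. Their largest changes were MXI1, the lipid droplet gene PLIN2 (-1.87) and NDRG1, and the genes near their middle were DUSP5 (-0.65), SNAPC3 (-0.56) and CASC8 (-0.52). MYC lies in the last of these windows, where 12 genes were lower and 0 higher in the controls.

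**Figure D5:**
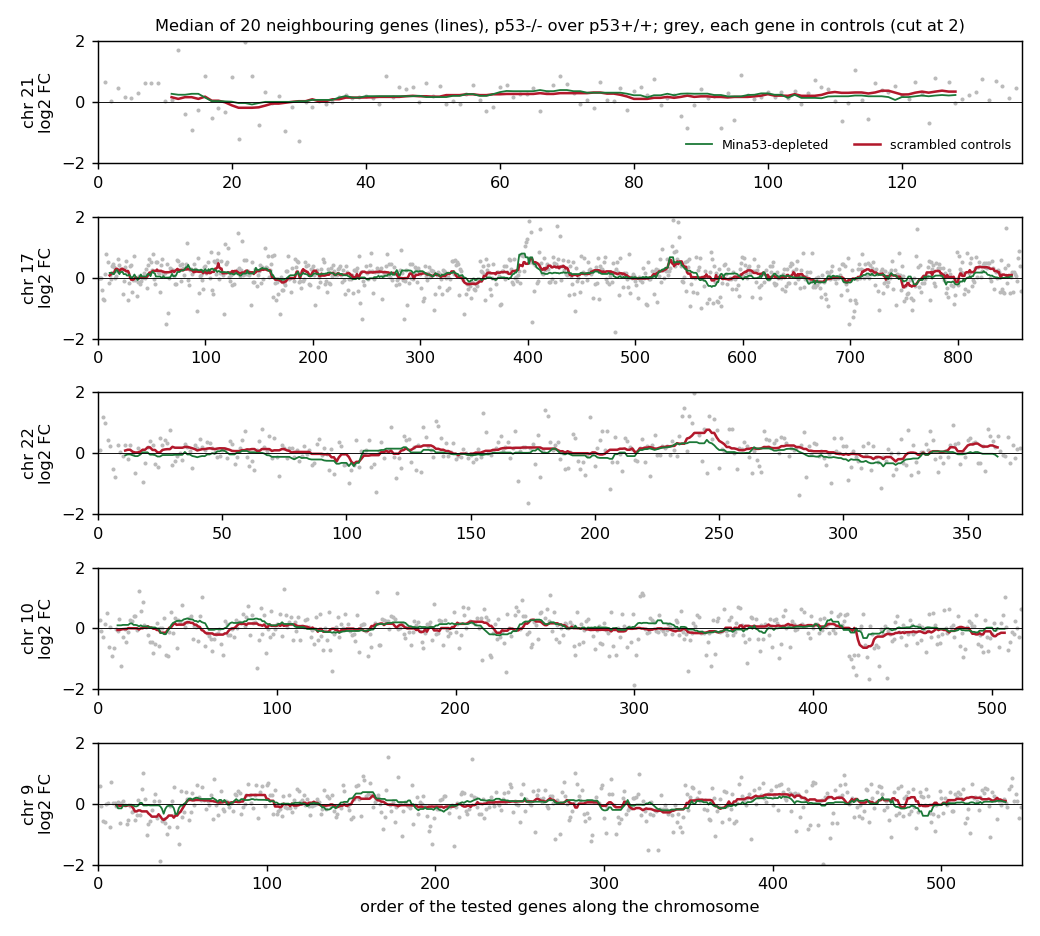
Median log2 fold change (p53-/- over p53+/+) in sliding windows of 20 neighbouring tested genes, green for Mina53-depleted libraries and red for scrambled controls, along chromosomes 21, 17, 22, 10 and 9; the horizontal axis is the order of the tested genes and grey points are single genes in controls, drawn to a size of 2. The red line stays above 0 over most of chromosome 21, peaks at 0.77 on chromosome 22 and at 0.61 and 0.58 on chromosome 17, and dips to -0.63 on chromosome 10 and -0.53 on chromosome 9.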

How the data were processed

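The authors' table holds 36615 gene symbols in 12 libraries and names no unit. Its deposited values were read as FPKM, since they are not whole, are scaled to length and have unequal totals. Per the labels, RNA was extracted with Trizol. The submitters' processing notes name the build hg19, and the sources used here give no aligner, counting tool or annotation. Low values had no whole-read steps, so depth is unknown.

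Values were tested as log2(FPKM + 1) in limma 3.58.1 (R 4.3.3) with a variance trend, 1 mean per group over all 12 libraries and 8 residual degrees of freedom, for genes with at least 1 FPKM in at least 3 libraries. The contrast was p53-/- minus p53+/+ controls, with the same contrast in depleted libraries and their difference. P-values were adjusted by the Benjamini-Hochberg method. The fit was tested on simulated data.

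The lists (41, with 1019 entries, of which 989 matched a symbol of the table) and the genes to name were chosen with earlier results of these data known. Beside a fixed set around p53, the rule named the 10 largest rises and falls without overlap that averaged 5 FPKM or more in the higher line, up to 4 members of each list with the smallest p in the direction of its median and 1 in the other, 6 genes restricted to each line, and the middle and largest member of the 3 highest and 3 lowest windows. A few genes this rule picks are not reported here. RefSeq promoters (GRCh38.p14) were searched on both strands. Alternatives changed the pseudocount, filter, scaling, libraries fitted, variance trend and replicate block, and left out each control library in turn.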

Additional observations from a re-analysis of the deposited data

Results flagged for a closer look

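For 119 of the 188 genes named by the rule and reported, the difference between the lines was not the same size in Mina53-depleted libraries as in scrambled controls, by the interaction term of limma at an adjusted p of 0.05 (32.9% of all tested genes passed). The 23 with a difference of at least 1 on the log2 scale, depleted minus control, are given here, and 11 of the 119 had called values of opposite sign in both sets.

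Most of the hypoxia and glycolysis genes among them were less far apart after depletion on the scale of log2(FPKM + 1), which gives a positive difference. BNIP3 had -0.52 in depleted cells and -2.32 in controls (difference 1.81, adjusted p = 3.81e-08). The differences were 1.69 for BHLHE40, 1.62 for ANGPTL4, 1.32 for CA9, 1.13 for PFKFB4 and 1.03 for SLC2A3, the last of which was higher in p53-/- cells in both sets. CA9 and ANGPTL4 were low in p53-/- cells, where the scale compresses changes. CA9 averaged 0.00831 FPKM in p53-/- and 3.25 FPKM in p53+/+ depleted cells, against 0.112 FPKM in p53-/- and 10.6 FPKM in p53+/+ controls. As a ratio of FPKM, the lines were therefore further apart in CA9 after depletion, not closer.

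Epithelial and differentiation genes with positive differences were KRT7 (1.64), LY6D (1.51), KLF4 (1.36), ANXA10 (1.07) and KRT80 (1.05). LY6D was listed at 0 in p53-/- cells in both sets, and the levels in p53+/+ cells were 1.70 ± 0.389 FPKM after depletion and 6.60 ± 0.192 FPKM in controls (SD, n = 3 each). The matricellular CCN1 (1.16), the proliferation antigen MKI67 (1.04) and the antiviral genes IFIT1 (1.11) and OAS3 (1.03) also had positive differences.

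Negative differences were found for the p53 targets FDXR (-1.34), PLK2 (-1.10) and CYFIP2 (-1.09). FDXR had -2.44 in depleted cells and -1.10 in controls, while PLK2 had -0.28 in depleted cells and 0.81 in controls. The others were ALDH1L1 (-1.33), ICAM1 (-1.12), DUSP6 (-1.09), CHAC1 (-1.04) and KRTAP2-3 (-1.02).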

How the results depend on the processing

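The comparison was repeated under 15 other settings, of which the scaling of all columns to equal totals was chosen after seeing the data. No called gene had the opposite call in any of them, which leaves out genes that lost their call. Of the 188 named genes 182 stayed on the same side of the threshold wherever they were tested. The others were CDX2, MAGEA2, MAGEA6, PAX2, TEX14 and PRMT1. Not every named gene was tested each time. With the filter of 5 FPKM 168 of the 188 were tested, with mitochondrial genes left out 183, and with a p53+/+ control left out 185 or 186. With a pseudocount of 0.1, 1157 genes reached a log2 fold change of 1, against 556, since low genes are compressed less. With a filter of 5 FPKM in 3 libraries, 8940 genes were tested and 2281 were lower, against 3656. Leaving out each library in turn gave 7909 to 8249 called genes. Higher and lower calls numbered 4419 and 4107 with TMM-type scaling, 5274 and 3411 with mitochondrial genes left out, and 6039 and 3050 with equal totals, so the balance moves with the scaling. The mitochondrial list has no value where its genes are left out. Same-numbered replicates deviated together by only -0.03 to 0.06 (correlation), within the -0.14 to 0.10 of differently numbered ones. How replicates were made is not given, so whether the numbers pair the samples is unknown. The replicate block gave 8520 calls. Depth is unknown, which limits low genes.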

Other observations

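Some neighbouring gene families, grouped after their values were seen, were mostly higher in p53-/- controls, beside 36.7% of all tested genes. All 5 tested kallikrein protease genes on chromosome 19 were higher (median 2.07), with KLK7 at 34.9, 35.3 and 36.6 FPKM in the p53-/- controls, against 6.12, 5.62 and 6.11 FPKM in the p53+/+ controls (2.40) beside KLK6 in the largest rises. Of 6 APOBEC3 cytidine deaminase genes 5 were higher (median 1.21). APOBEC3G, which edits viral DNA, was at 9.76, 8.63 and 10.2 FPKM in the p53-/- controls, against 1.71, 1.76 and 1.64 FPKM in the p53+/+ controls (1.96, limma adjusted p = 4.42e-10), and APOBEC3C rose by 1.49. All 7 tested keratin-associated protein genes were higher (median 1.26). Of these, KRTAP4-12 and KRTAP2-2 were under 1 FPKM in every p53+/+ library and passed the filter only through p53-/- libraries, so their direction was set by the filter. The median differences of these families in depleted libraries were 1.34 for kallikreins, 0.82 for APOBEC3 genes and 1.30 for keratin-associated genes.

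The zinc finger genes of chromosome 19 were divided, with 53 of 129 higher and 21 lower (median 0.14), beside 36.7% higher and 26.6% lower of all tested genes. The 8 that were lower by at least 1 were ZNF350, ZNF426, ZNF44, ZNF607, ZNF675, ZNF724, ZNF875 and ZNF91, while the highest was ZNF45 (0.96). By gene type, 4394 of 11532 protein-coding genes (38.1%) were higher and 3240 lower, as were 197 of 637 long noncoding genes (30.9%) higher and 113 lower, and 111 of 531 pseudogenes (20.9%) higher and 155 lower.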
